A study of Mus musculus with 4 samples.

Results

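The nuclei described here are excitatory nuclei of the libraries labelled cortex that carry many transcripts of Tshz2, the gene of a zinc finger transcription factor. Members had at least 1 UMI (unique molecular identifier, 1 counted transcript molecule) of Slc17a7, the vesicular glutamate transporter of cortical excitatory neurons, and at least 8 UMIs of Tshz2. They also had at most 2 UMIs of the upper-layer gene Cux2, fewer UMIs of Hs3st4, an enzyme gene of layer 6 neurons, than of Tshz2, and no UMI of Gad1 and Gad2 (GABA synthesis) or of the striatal genes Rgs9, Drd1 and Drd2. At most 1 UMI in all of Mog, Aqp4, Csf1r and Cldn5, genes of oligodendrocytes, astrocytes, microglia and endothelium, was allowed. The rule kept 358 of 37538 nuclei in the 2 libraries labelled cortex, of 78728 nuclei in the 4 libraries of the series. Of these, 158 came from the AAV-CTRL library and 200 from the AAV-VEGF-C library.

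Tshz2 is best known in cortex from near-projecting neurons, glutamatergic cells of the deep layers whose axons stay close by and do not reach the distant targets of their neighbours. Vwc2l, Slc17a8 (a second vesicular glutamate transporter), Trhr (the receptor of thyrotropin-releasing hormone), Lypd1 and Nxph1 are usual markers of these cells. Tshz2 is also found in excitatory neurons of the retrosplenial area, so that a count of Tshz2 alone does not name a single kind of neuron.

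Single-nucleus RNA-seq was performed on brain tissue of male C57BL/6J mice aged 8 weeks, which had received an adeno-associated virus (AAV, serotype 9) into the cisterna magna at 4 weeks of age. AAV-VEGF-C drove the complete mouse protein VEGF-C (vascular endothelial growth factor C), and AAV-CTRL drove a soluble immunoglobulin fusion of VEGF receptor 3 domains that do not bind VEGF-C, so that control mice also made a secreted protein. Each AAV group gave 1 library labelled cortex and 1 labelled striatum from the pooled tissue of 5 mice, so that the same mice are behind both regions and single mice cannot be told apart. The question put to the pair of cortical libraries is how gene expression in this kind of neuron differed between the AAV groups. With 1 library per group no test was possible, and every difference below describes 2 libraries, with 95% intervals that cover counting error only and not the spread between mice.

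The 2 libraries labelled cortex held 17168 and 20370 nuclei with 63165470 and 78332657 UMIs, in the order AAV-CTRL and AAV-VEGF-C that is kept below. The regional labels were only partly borne out by marker genes. Nuclei with at least 2 Slc17a7 UMIs and no Rgs9, Drd1 or Drd2 made up 28.6% and 29.1% of the libraries labelled cortex and 2.55% and 2.12% of those labelled striatum. Nuclei with at least 2 UMIs of Rgs9, Drd1 and Drd2 together and at most 1 of Slc17a7 made up 6.51% and 7.55% of the libraries labelled cortex, more than the 3.73% and 4.48% of those labelled striatum. The label cortex is therefore used here only as the name of a library. Each of the other 3 libraries shared 1 barcode with the 158 AAV-CTRL members, 1 of the other 3 shared 1 with the 200 AAV-VEGF-C members, and 0 of these barcodes were members in the other library.

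The members made up a like share of both libraries. They were 0.920% (95% Clopper-Pearson interval 0.783 to 1.07%) of the AAV-CTRL library and 0.982% (0.851 to 1.13%) of the AAV-VEGF-C library. The log2 ratio of these shares was 0.09 (−0.21 to 0.40). Of the excitatory candidates, nuclei that met every condition but those on Tshz2, Cux2 and Hs3st4, they made up 3.38% of 4672 and 3.62% of 5525. The condition on Gad1 and Gad2 took out the most nuclei after the one on Tshz2, from 343 to 220 and from 430 to 275.

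The members were chosen by the UMI counts of these marker genes, above all Tshz2 (chromosome 2, 169633013 to 170071816, plus strand, mm10), so that levels of these genes are a description. A member held 8 to 53 Tshz2 UMIs with a median of 14 in the AAV-CTRL library, and 8 to 82 with a median of 15.5 in the AAV-VEGF-C library. Summed over members, Tshz2 reached 3161 and 3233 UMIs per 1000000 (CPM) and Slc17a7 517 and 501 CPM. Nuclei just under the threshold, with 6 or 7 Tshz2 UMIs and all other conditions met, numbered 34 and 33. Those just above it, with 8 or 9, numbered 29 and 36. The summed level of the 10 near-projecting genes listed here was 596 and 376 CPM just under the threshold and 341 and 353 CPM just above it, so that the threshold marked no step in these genes. The members had a median of 4489 and 5042 UMIs, and 799191 and 1129723 UMIs in all.

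Summed over all members, the near-projecting genes were at several times their level in other cortical excitatory nuclei. For comparison, excitatory candidates were sorted by their leading layer gene into a Cux2-type (126 and 152 nuclei), a Rorb-type (236 and 339) and an Hs3st4-type (450 and 592), together called layer types. The 10 near-projecting genes summed to 1080 and 1083 CPM in members, against 212 and 226 CPM in the layer types. Oligodendrocyte nuclei held 369 and 394 CPM of them, more than the layer types. The levels were uneven over the clusters of members described below. Nxph1 was at 904 and 1731 CPM in clusters 1 and 6 and at most 46.5 CPM in any other. Vwc2l ranged from 0 CPM in cluster 9 to 1041 CPM in cluster 1. The log2 ratios were 2.35 (2.22 to 2.48) and 2.26 (2.15 to 2.37), the same size in both libraries. Of the 10 genes, 4 were at least 2-fold higher in both libraries, namely Vwc2l, Nxph1, Etv1 and Lypd1, among 6 with enough UMIs to compare. Over all 7756 genes compared, 51 (0.658%) were at least 2-fold higher and 61 (0.786%) at least 2-fold lower in both libraries. The rule chose members with these same counts, so that nothing is read from the numbers of genes.

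Vwc2l, the gene of a secreted protein with von Willebrand C domains, was at 283 and 268 CPM in members and between 23.8 and 38.7 CPM in each layer type of either library. Nxph1, a secreted partner of neurexins, was at 392 and 293 CPM against 12.3 to 44.8 CPM, though oligodendrocyte nuclei held 136 and 131 CPM of it. Slc17a8 gave only 19 and 19 UMIs in members, 23.8 and 16.8 CPM, and at most 1.43 CPM in any layer type. Trhr gave 21 and 29 UMIs, 26.3 and 25.7 CPM, against at most 4.97 CPM. Crym and Cpa6, on the same list, did not set members apart: Crym was at 33.8 and 40.7 CPM in members and at 42.0 and 46.4 CPM in the Hs3st4-type, and Cpa6 was at 16.3 and 9.74 CPM against 46.9 and 39.5 CPM. Sla2 was close to absent, with 2 and 4 UMIs.

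**Figure D1:**
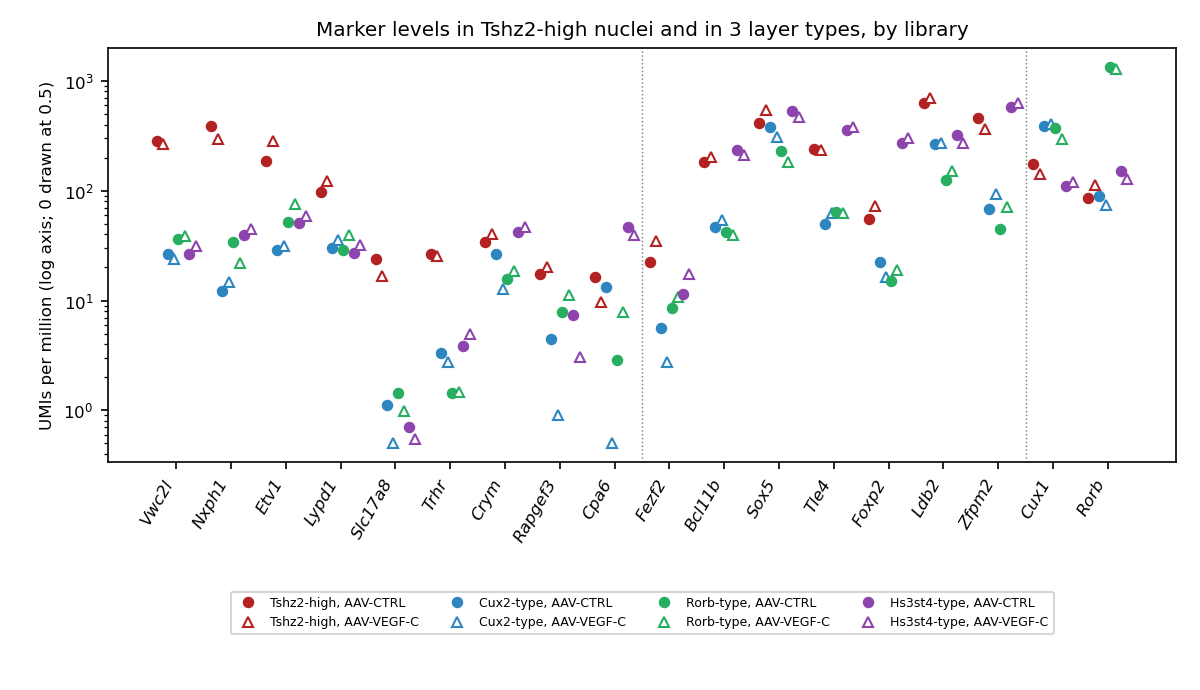
Level of 18 marker genes, in CPM on a log axis, in Tshz2-high nuclei (red) and in the 3 layer types, with filled circles for the AAV-CTRL library and open triangles for the AAV-VEGF-C library; dotted lines separate near-projecting genes, deep-layer regulators and upper-layer genes. Vwc2l, Nxph1, Slc17a8 and Trhr lie above all layer types in both libraries, while Tle4 and Foxp2 are highest in the Hs3st4-type.

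The shares of nuclei with a UMI gave the same order. In the AAV-CTRL library 41.1% (33.4 to 49.2%) of members had a Vwc2l UMI, against 2.08% of 722 oligodendrocyte nuclei, which should lack the gene and show the background of free RNA. In the AAV-VEGF-C library the shares were 41.0% (34.1 to 48.2%) of members and 2.32% of 906 oligodendrocyte nuclei. In each layer type of either library the share was between 8.67% and 14.2%. Median depth was 4489 and 5042 UMIs in members and 1859 and 1866 UMIs in oligodendrocyte nuclei. With every nucleus thinned to 1000 UMIs, 17.1% and 18.5% of members and 0.838% and 1.01% of oligodendrocyte nuclei kept a Vwc2l UMI. Of the nuclei in each layer type, between 1.69% and 4.61% kept one. A nucleus under 1000 UMIs could not be thinned, which left out 6 and 12 oligodendrocyte nuclei and no member. More than 1 in 2 members therefore had no UMI of this gene.

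Genes of deep-layer identity were present, but not all of them were above each layer type. Fezf2, a regulator of subcerebral neurons, was at 22.5 and 34.5 CPM, above each layer type (2.75 to 17.4 CPM). Ldb2 was at 629 and 703 CPM against 125 to 321 CPM. Bcl11b, which acts with Fezf2, was at 181 and 204 CPM, above the Cux2-type and the Rorb-type (39.7 to 54.1 CPM) and below the Hs3st4-type (236 and 211 CPM). Tle4 and Foxp2, genes of layer 6 corticothalamic neurons, were at 240 and 234 CPM and at 55.1 and 72.6 CPM, below the 359 and 378 CPM and the 271 and 304 CPM of the Hs3st4-type. The 9 deep-layer regulators summed to 2416 and 2601 CPM in members, between the Cux2-type (1182 and 1144) and the Hs3st4-type (2722 and 2718).

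Genes listed for other kinds of neuron were compared in the same way. The 5 genes listed for retrosplenial neurons summed to 188 and 189 CPM against 44.1 and 48.6 CPM in the layer types, with Coro6 at 100.1 and 80.6 CPM and Slc17a6, another vesicular glutamate transporter, at 53.8 and 72.6 CPM. Cxcl14, also on that list, gave 13 and 19 UMIs. The 6 genes of layer 5 extratelencephalic neurons summed to 154 and 247 CPM against 68.3 and 65.5 CPM in the layer types, but oligodendrocyte nuclei held 171 and 184 CPM of them. Parm1 gave 70 of the 123 and 150 of the 279 UMIs, at 87.6 and 133 CPM in members and 94.2 and 102 CPM in oligodendrocyte nuclei. The log2 ratio of the list between the AAV libraries was 0.68 (0.37 to 1.00). Cluster 9 of the members, a set of 14 nuclei which counted 4 of the 6 genes, held 3 of 158 and 11 of 200 members. Of the Parm1 UMIs it held 41, and Parm1 was higher in the AAV-VEGF-C library in 7 of the 9 clusters of members. The part of cluster shares in the ratio of the list was not tested. Hippocampal genes were lower in members than in the layer types, at 299 and 325 CPM against 620 and 589 CPM. Interneuron genes were at 308 and 350 CPM against 306 and 354 CPM. Layer 6b genes and olfactory mitral genes were close to absent, with 6 and 16 UMIs and with 2 and 7 UMIs. Striatal projection genes, which are spread over all nuclei of these libraries, were at 1590 and 1271 CPM in members and at 1704 and 1585 CPM in the layer types.

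Outside the lists, the gene that set members furthest apart was Gm26883, a long noncoding RNA at 1569 and 1420 CPM against 20.6 and 20.7 CPM in the layer types. It lies at 169633646 to 169888503 on the minus strand of chromosome 2 (mm10), wholly within Tshz2 on the other strand, so that its count may come in part from Tshz2 reads and is not independent of the rule. It gave 2858 UMIs in members, and Tshz2 gave 6178. Among the other leading genes were Kcnip1, a potassium channel partner (128 and 117 CPM against 13.0 and 13.8), and Tox, a nuclear DNA-binding protein (488 and 478 against 130 and 124). Receptor genes were among them, namely the serotonin receptor Htr4 (67.6 and 78.8 CPM against 19.2 and 22.2), the muscarinic receptor Chrm2 (241 and 211 against 86.6 and 69.0) and the kainate receptor subunit Grik1 (353 and 421 against 117 and 106). Chrm2 was nearer to members in the Rorb-type, at 180 and 124 CPM. Over the clusters of members, described below, it ranged from 8.18 CPM in cluster 9 to 632 CPM in cluster 1. Oligodendrocyte nuclei held more than the layer types of Grik1 (148 and 147 CPM), Kcnip1 (47.7 and 60.8 CPM) and Etv1 (104 and 107 CPM). The remaining genes of the 20 were Gm2164, Coro6, Etv1, Lypd1, Parm1, Samd5, Gm21798, Bmper, Pcsk5, Galnt14, Nxph3 and Gm45846 besides Nxph1 and Vwc2l. Gm2164 and Gm21798 overlap Pou3f1 and Adcy8 on the opposite strand, and Gm45846 overlaps Tnrc6a on the same strand.

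The genes lowest in members were Gm20752, Col11a1, 1700047F07Rik, Gm10635, Arhgap25, Zfhx4, Rorb, Fbxo32, Ttr and 4933432K03Rik. Rorb, at 85.1 and 112 CPM, defines one of the layer types, so that its place among them is set by that choice. Zfhx4, a large homeobox gene, was at 8.76 and 8.85 CPM against 42.7 and 39.7 CPM. Col11a1, a fibrillar collagen gene, was at 3.75 and 4.43 CPM against 29.3 and 27.6 CPM. Ttr, a gene of choroid plexus, was at 75.1 and 65.5 CPM in members and at 2060 and 55.9 CPM in the Cux2-type of the 2 libraries.

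When the 358 members were clustered, they fell into 9 clusters, and only 2 of these could be named. Clusters 1 (83 nuclei) and 6 (30 nuclei) met the naming rule given below and are called near-projecting-like. Cluster 1 counted Trhr, Lypd1, Vwc2l, Rapgef3 and Nxph1, that is 5 of 10 markers, and cluster 6 counted Slc17a8, Crym, Cpa6 and Nxph1, that is 4 of 10. A marker counted at 2 times its level in the other members or more, with a UMI in at least 10% of the nuclei. A name needed 3 counted markers, 30% of the list and 2 markers among the 10 leading genes, a rule that was set after the clusters had been seen. Together these clusters held 48 of 158 members (30.4%, 23.3 to 38.2%) and 65 of 200 (32.5%, 26.1 to 39.5%), with a log2 ratio of 0.10 (−0.46 to 0.67). Other clusters were less even, namely cluster 3 with 16 and 37 nuclei (10.1% and 18.5%), cluster 5 with 22 and 13 (13.9% and 6.5%) and cluster 9 with 3 and 11 (1.90% and 5.5%). These 3 lie among the members that are not near-projecting-like, and since Prr16, a leading gene of cluster 5, also differed between the libraries, the sizes are given as values only. Under other settings the near-projecting-like share of all members, 31.6% here, was as low as 19.5%, with a Tshz2 minimum of 6. That setting named 35 and 48 nuclei, where cluster 1 alone held 33 and 50. Whether cluster 6 lost its name there was not tested. Near-projecting markers thus named 113 of 358 members, and the other 245 are called Tshz2-high only.

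The 2 near-projecting-like clusters were not alike. In cluster 1, Vwc2l was at 1041 CPM with a UMI in 94.0% of nuclei, and Tshz2 at 5405 CPM, its highest level in any cluster. Its other leading genes were Mgat4c, a glycosyltransferase gene, at 3611 CPM against 513 CPM in the other members, Kcnip1 (462 against 42.2) and Stard5, a lipid transfer protein gene (267 against 16.6). In cluster 6, Nxph1 was at 1731 CPM with a UMI in every nucleus and Slc17a8 at 187 CPM with a UMI in 60% of nuclei. Vwc2l was at 287 CPM in cluster 6 against 273 CPM in the other members. Trhr was at 37.5 against 24.9 CPM and Lypd1 at 62.5 against 117 CPM, so that these markers did not count for cluster 6. The guidance ligand Sema3e was at 412 CPM there against 45.2 CPM in the other members. Tle4 was at 616 and 637 CPM in clusters 1 and 6 and at most 137 CPM in any other. Cluster 6 also counted Foxp2, Rprm and Grik3 of the 6 corticothalamic genes, none of which was among its 10 leading genes. Crym and Cpa6, which counted for its name, were lower over all members than in the Hs3st4-type. The name near-projecting-like is thus less firm for cluster 6 than for cluster 1.

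**Figure D2:**
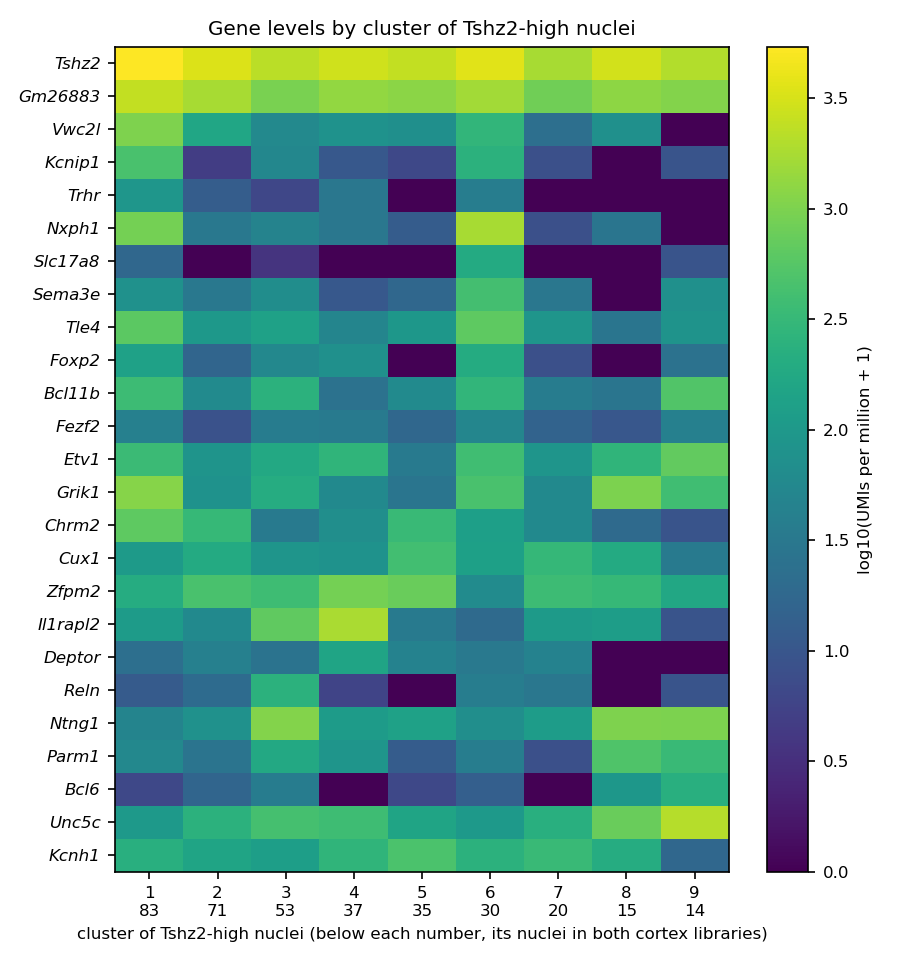
Levels of 25 genes in the 9 clusters of Tshz2-high nuclei, as log10 of CPM plus 1, summed over both libraries labelled cortex, with the nuclei of each cluster under its number. Vwc2l and Trhr are highest in cluster 1, Nxph1 and Kcnip1 are higher in clusters 1 and 6 than in the other 7, and Il1rapl2 is highest in cluster 4, while Tshz2 and Gm26883 are high in all 9 by the choice of the nuclei.

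The other 7 clusters are named by number and leading genes only. Cluster 2 (71 nuclei) was led by Hbb-bt, Hba-a2, Hba-a1 and Hbb-bs, genes of red blood cells, at 1629 CPM together against 129 CPM in the other members, and had the lowest median depth, 3382 UMIs. Behind these came Prkd1, Pcdh11x, Cdh20 and Ntng2. The globin genes were not general to cluster 2, with Hbb-bs found in 28.2% and Hbb-bt in 7.04% of its nuclei. This cluster held 210 Hbb-bs UMIs in 34 AAV-CTRL nuclei, 193 of them in 1 nucleus, and 12 in 37 AAV-VEGF-C nuclei. Of the retrosplenial genes, Cxcl14 was at 72.5 CPM there against 7.80 CPM in the other members, and Slc17a6 at 137 against 53.4. Coro6, Cbln1 and Scnn1a were not higher there. Cluster 3 (53 nuclei) was led by Ankfn1, the extracellular matrix gene Reln, and the cadherins Cdh4 and Cdh9, with Ntng1 at 1085 CPM. Cluster 4 (37 nuclei) had Il1rapl2, a gene of layer 5 intratelencephalic neurons, at 1838 CPM against 201 CPM, and Ptprm, Deptor and Zfpm2 (885 CPM). Cluster 5 (35 nuclei) had Npnt, Adcy10 and Elmo1 in the lead and counted 4 of 9 upper-layer genes, Cux1, Lhx2 and Rasgrf2 among them. Cluster 7 (20 nuclei) was led by Prex1 and Maml3 and counted Cux1, Pou3f2, Rasgrf2 and Calb1.

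Clusters 8 (15 nuclei) and 9 (14 nuclei) each counted 3 or 4 of the 6 extratelencephalic genes, Pou3f1, Bcl6 and Parm1 in both and Npr3 in cluster 9, but only Parm1 in cluster 8 was among the 10 leading genes. Cluster 8 was led by Zfp804b at 3304 CPM against 164 CPM in the other members and had Bcl11b at 27.6 CPM. Of the 5 genes listed for retrosplenial neurons, Cbln1 (19 UMIs) was at 175 CPM in cluster 8 against 4.39 CPM. Scnn1a (5 UMIs) was at 46.0 CPM against 2.20 CPM and Coro6 at 156 CPM against 84.6 CPM, while Slc17a6 and Cxcl14 were lower there. Cluster 9 was led by 9330185C12Rik, Stac and Ndst4, a heparan sulfate enzyme gene at 917 CPM against 7.20 CPM, and had Bcl11b at 516 CPM.

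Between the AAV libraries, few genes of the members differed by more than 1.5-fold. Of 1781 genes with at least 200 UMIs over both libraries, 16 (0.898%) were higher and 7 (0.393%) lower in the AAV-VEGF-C library by that fold. The median log2 ratio over the genes compared was −0.0012. The interval lay wholly above 0 for 171 genes (9.6%) and wholly below 0 for 168 (9.43%). The genes named below come from the 10 on each side whose interval lay farthest from 0, a few of which stayed under 1.5-fold.

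**Figure D3:**
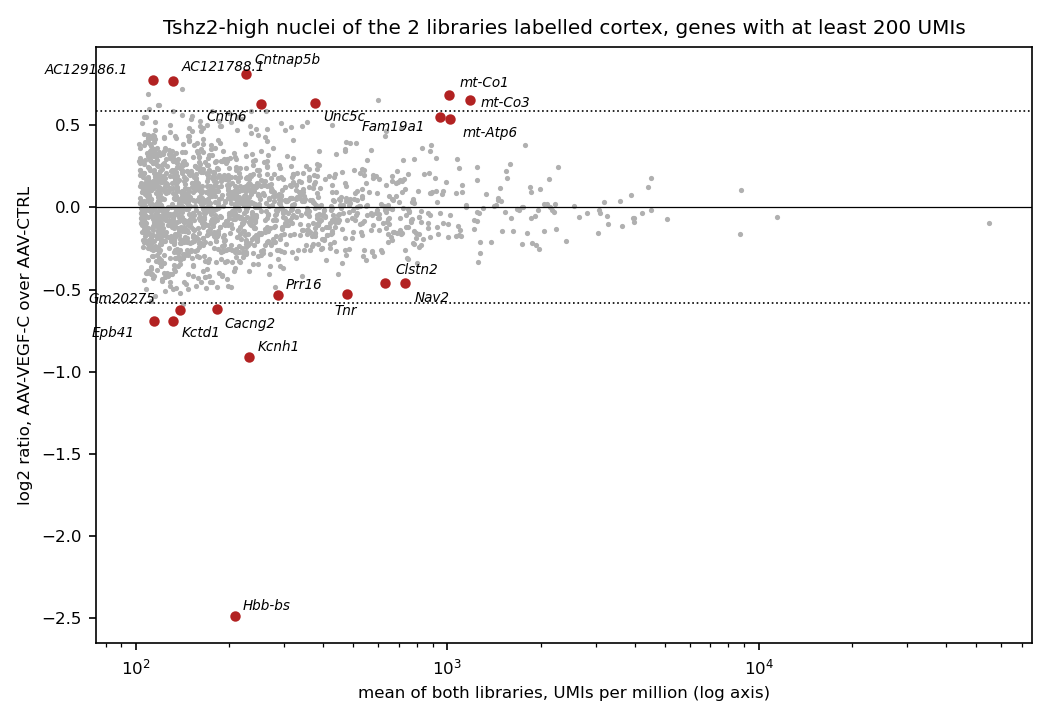
Each point is 1 of 1781 genes in Tshz2-high nuclei, with its mean level in CPM on a log axis and its log2 ratio of the AAV-VEGF-C library over the AAV-CTRL library; red points are 19 named genes and dotted lines mark 1.5-fold. Most genes lie between the lines, and Hbb-bs, at −2.49, lies farthest from 0.

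On the higher side, 3 of the 10 genes were mitochondrial. The cytochrome oxidase genes mt-Co1 and mt-Co3 and the ATP synthase gene mt-Atp6 gave 778 and 1250 CPM, 921 and 1446 CPM, and 830 and 1206 CPM. Their log2 ratios were 0.68 (0.55 to 0.82), 0.65 (0.52 to 0.78) and 0.54 (0.41 to 0.68). The same genes were higher in the AAV-VEGF-C library in all 3 layer types, by 0.44 to 0.96. Mitochondrial genes together took 0.468% and 0.679% of UMIs in members, 0.425% and 0.684% in the layer types and 0.722% and 0.966% over all nuclei of these libraries. The part of RNA quality in this was not tested.

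The others were nuclear genes, most of which are given here. Cntnap5b, a contactin-associated cell surface gene, gave 131 and 325 UMIs, 164 and 288 CPM, with a UMI in 35.4% and 50.5% of members. Its log2 ratio was 0.81 (0.51 to 1.12), while it was −0.36 (−0.70 to −0.03), 0.06 (−0.12 to 0.24) and −0.11 (−0.29 to 0.07) in the Cux2-type, Rorb-type and Hs3st4-type. Cntn6, a contactin gene, gave 198 and 305 CPM, a log2 ratio of 0.63 (0.35 to 0.91). Unc5c, a netrin receptor gene, gave 295 and 459 CPM, a log2 ratio of 0.64 (0.41 to 0.87). Cluster 9, with 3 and 11 nuclei, held 252 of its 755 UMIs. In the Cux2-type, Rorb-type and Hs3st4-type its log2 ratios were −0.04 (−0.26 to 0.19), 0.09 (−0.04 to 0.22) and 0.16 (0.05 to 0.27). Fam19a1 gave 772 and 1131 CPM, a log2 ratio of 0.55 (0.41 to 0.69), and was also higher in the Cux2-type, by 0.47 (0.38 to 0.56). Its log2 ratio was 0.12 (0.03 to 0.21) in the Rorb-type and −0.26 (−0.33 to −0.19) in the Hs3st4-type. Near-projecting-like nuclei held only 15 and 22 of its UMIs. AC121788.1 and AC129186.1, genes with no common name, had log2 ratios of 0.77 (0.38 to 1.17) and 0.77 (0.36 to 1.21), and the first was found in 10.1% and 17.5% of members only.

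Kcnh1, the gene of a voltage-gated potassium channel, was the nuclear-encoded neuronal gene with the interval farthest below 0. It gave 241 and 181 UMIs, 302 and 160 CPM, with a UMI in 67.7% and 45.0% of members, and a log2 ratio of −0.91 (−1.20 to −0.63). In the layer types the ratio was −0.30 (−0.50 to −0.09), −0.25 (−0.39 to −0.11) and −0.05 (−0.18 to 0.08). Tnr, a matrix glycoprotein gene, gave 563 and 391 CPM, a log2 ratio of −0.53 (−0.72 to −0.33). Cacng2, the AMPA receptor partner stargazin, gave 220 and 143 CPM, a log2 ratio of −0.62 (−0.94 to −0.30). Clstn2, a synaptic cadherin relative, gave 733 and 534 CPM, a log2 ratio of −0.46 (−0.62 to −0.29). Kctd1, Epb41, Gm20275, Prr16 and Nav2 had log2 ratios of −0.69, −0.69, −0.62, −0.53 and −0.46. Prr16 was also lower in the Hs3st4-type, at −0.57 (−0.79 to −0.35), and in the Rorb-type, at −0.20 (−0.35 to −0.06). In the Cux2-type its log2 ratio was 0.12 (−0.19 to 0.44). Gm20275 overlaps Myo9a on the opposite strand.

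The lowest ratio belonged to Hbb-bs, the adult beta globin gene, at 353 and 62.8 CPM, a log2 ratio of −2.49 (−2.89 to −2.11). A single AAV-CTRL nucleus held 193 of the 282 UMIs. Without the nucleus with the most UMIs in each library, 89 and 69 UMIs were left and the log2 ratio was −0.87 (−1.34 to −0.40). The 4 globin genes together took 639 and 116 CPM in members and 1171 and 577 CPM over all nuclei of these libraries. Nav2 had 62 of its 675 AAV-CTRL UMIs in 1 nucleus, and its log2 ratio was −0.35 (−0.51 to −0.19) without the top nucleus of each library.

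Ratios of several of the higher genes were set apart by kind of nucleus, and the other members held clusters 3, 5 and 9 in unequal shares. Within the 113 near-projecting-like nuclei, Cntnap5b was at 252 and 239 CPM, a log2 ratio of −0.07 (−0.60 to 0.46), and within the other 245 members at 132 and 306 CPM, a log2 ratio of 1.22 (0.84 to 1.60). Cntn6 was at 0.29 (−0.06 to 0.64) and 1.18 (0.70 to 1.69) in the same order. Unc5c was at −0.19 (−1.03 to 0.66) and 0.71 (0.48 to 0.95). With the same cluster shares set in both libraries, the log2 ratios of Cntnap5b, Cntn6 and Unc5c were 0.50, 0.37 and 0.19. The difference between both kinds of nuclei was not tested, and the clusters were built from the same counts.

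Kcnh1 and mt-Co1 had ratios of like size in both kinds. Kcnh1 was at 335 and 165 CPM in the near-projecting-like nuclei, a log2 ratio of −1.02 (−1.57 to −0.49), and at 289 and 158 CPM in the others, a log2 ratio of −0.87 (−1.21 to −0.53). It was lower in the AAV-VEGF-C library in 7 of 9 clusters, and its log2 ratio with the same cluster shares was −0.67. Tnr, Kctd1, Nav2, Cacng2 and Gm20275 were each lower in 8 of 9 clusters, and Prr16 in 6. Other genes had mixed directions, with Unc5c and AC121788.1 each higher in 4 and lower in 5 clusters and Fam19a1 higher in 5 and lower in 4. For mt-Co1 the log2 ratios were 0.66 (0.38 to 0.94) and 0.69 (0.53 to 0.85), and it was higher in 8 of 9 clusters. Etv1, a transcription factor gene on the near-projecting list, was higher in all 9 clusters, at 188 and 282 CPM over all members with a log2 ratio of 0.59 (0.30 to 0.88), but its ratio within the near-projecting-like nuclei was 0.05 (−0.39 to 0.48).

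**Figure D4:**
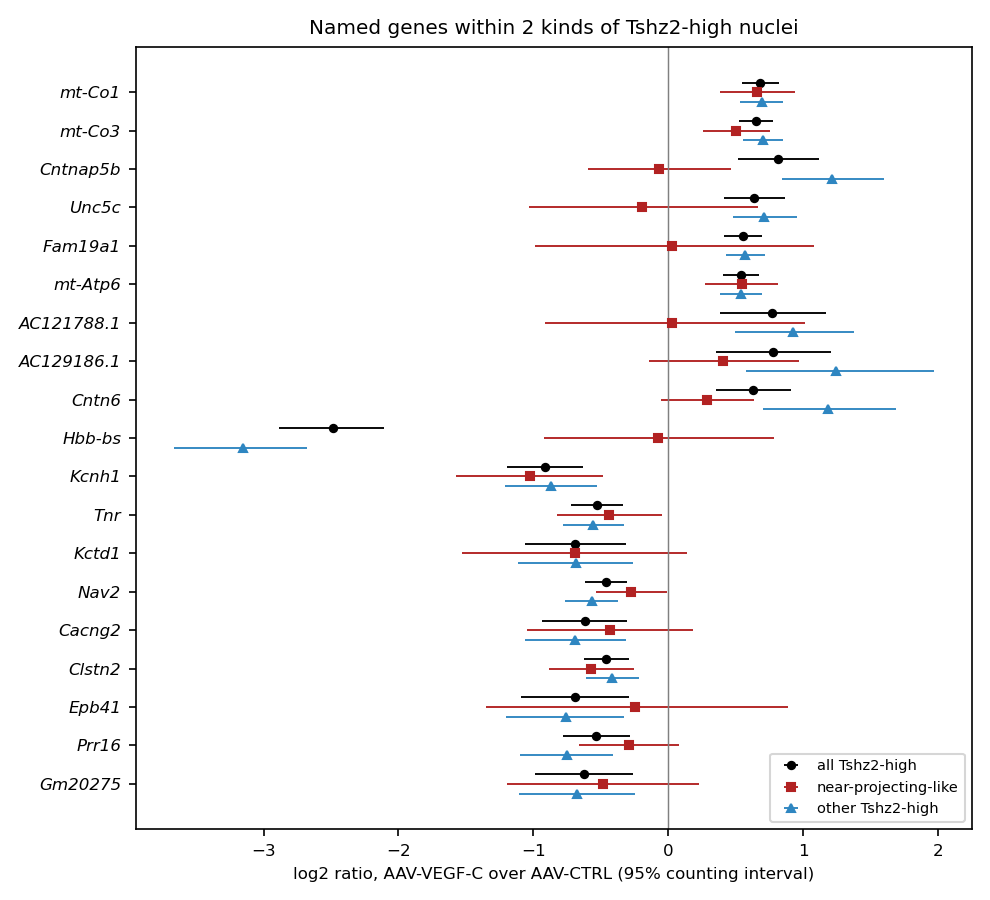
Log2 ratio of the AAV-VEGF-C library over the AAV-CTRL library for 19 named genes, with 95% counting intervals, in all Tshz2-high nuclei (black circles), in the 113 near-projecting-like nuclei (red squares) and in the other 245 (blue triangles). Kcnh1 lies below 0 in both kinds of nuclei, while Cntnap5b and Unc5c lie above 0 in the other nuclei and have intervals that include 0 in the near-projecting-like nuclei.

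Among the remaining genes past 1.5-fold were Parm1 (log2 ratio 0.60), the serotonin receptor Htr1f (0.72, at 106 and 175 CPM), the neuronal glutamate transporter Slc1a1 (0.69, at 83.8 and 135 CPM), the matrix gene Spon1 (0.59), Soga3 (0.62), B230334C09Rik (0.62) and the ribosomal gene Rpl41 (0.59). On the lower side there was Syn3, a synapsin gene, with a log2 ratio of −0.59 (−0.95 to −0.23) at 170 and 113 CPM.

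The near-projecting genes summed to equal levels in the AAV libraries, with a log2 ratio of 0.00 (−0.12 to 0.13), and of 4 genes with enough UMIs 1, Etv1, was past 1.5-fold, with 1.29% of all genes compared past it. Nxph1, at 392 and 293 CPM, had a log2 ratio of −0.42 (−0.65 to −0.19). Of the 9 deep-layer regulators 6 were compared and none was past 1.5-fold, with Sox5 at 0.40 (0.20 to 0.60) and Zfpm2 at −0.32 (−0.53 to −0.11).

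The transgene's own gene was scarce in these nuclei. Vegfc gave 2 UMIs in the AAV-CTRL members and 17 in the AAV-VEGF-C members, 2.50 and 15.0 CPM, a log2 ratio of 2.59 (0.51 to 5.75). The counts do not tell transcripts of the virus from those of the mouse gene. Of the receptors, Flt4 (VEGF receptor 3) gave 1 and 2 UMIs, and Kdr (VEGF receptor 2) gave 5 UMIs and 0. For the 0, a one-sided limit of 3 UMIs comes to 2.66 CPM. The coreceptor Nrp1 gave 158 and 203 CPM, a log2 ratio of 0.36 (0.04 to 0.69), and Nrp2 57.6 and 62.0 CPM, a log2 ratio of 0.11 (−0.45 to 0.68).

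Signalling by BDNF (brain-derived neurotrophic factor), a pathway the study follows in brain cells, was read from 40 genes. Of these, 11 had enough UMIs and 0 were past 1.5-fold in either direction, against 1.29% of all genes compared. Their median log2 ratio was −0.14, beside −0.0012 over all genes compared, and their sum was 5138 and 4890 CPM, a log2 ratio of −0.07 (−0.13 to −0.01). Ntrk2, the receptor of BDNF, was at 762 and 778 CPM, a log2 ratio of 0.03 (−0.12 to 0.18). The kinase gene Braf was at 239 and 190 CPM, a log2 ratio of −0.33 (−0.62 to −0.04). Bdnf itself gave 36 and 35 UMIs, 45.0 and 31.0 CPM, a log2 ratio of −0.54 (−1.25 to 0.17). Ntrk3, the receptor of neurotrophin 3, was at 627 and 522 CPM, a log2 ratio of −0.26 (−0.44 to −0.09).

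Genes of excitability and of contact between cells were read against the 1.29% of all genes compared that were past 1.5-fold, a share at which few or no calls come in lists of this size. Of 26 potassium channel and related genes 23 were compared. Kcnh1 alone was lower by 1.5-fold, and they had a median log2 ratio of −0.08. Kcnh5, a relative of Kcnh1, was at −0.42 (−0.73 to −0.11) and the calcium-gated channel gene Kcnn2 at 0.45 (0.17 to 0.74). None of 13 sodium and calcium channel genes, 19 glutamate receptor genes and 10 GABA receptor genes compared was past 1.5-fold, with medians of −0.04, −0.02 and 0.04. Of 22 cadherin and guidance genes compared, Unc5c alone was past it, and Epha5 was next on the higher side at 0.48 (0.32 to 0.64). Of 4 neuromodulator receptor genes compared 1, Htr1f, was past it. Neither of the 2 immediate early genes compared was past 1.5-fold, Egr1 at −0.16 (−0.48 to 0.16) and Homer1 at −0.19 (−0.44 to 0.06).

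Transcripts of glial and vascular cells were low, and the oligodendrocyte and astrocyte lists were alike in both libraries, while the others were less so at few UMIs. Oligodendrocyte genes summed to 343 and 344 CPM in members against 11649 and 12228 CPM in oligodendrocyte nuclei, and none of the 4 was at 0, nor was any gene of the other glial and vascular lists. Astrocyte genes summed to 123 and 122 CPM, microglial genes to 70.1 and 93.8 CPM, endothelial genes to 22.5 and 8.85 CPM (18 and 10 UMIs, a log2 ratio of −1.35, −2.63 to −0.16), precursor genes to 12.5 and 21.2 CPM and fibroblast genes to 6.26 and 14.2 CPM. Striatal projection genes had a log2 ratio of −0.32 (−0.43 to −0.21) between the libraries. Their part in the differences above was not tested.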

How the data were processed

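The authors prepared nuclei with the 10x Genomics 3′ v3 chemistry and deposited UMI counts per gene and nucleus, not normalized. Per the file headers they were made with Cell Ranger 5.0.1, while the submitters' processing notes name Cell Ranger 5.1.1 and mm10. The annotation and the counting of intronic reads are not given in the sources used here. The deposited tables list 31053 genes.

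Members were found by the rule given above, and the members and the 30 gene lists were chosen with earlier results of these data known. UMIs were summed per library and scaled to 1000000. Counting intervals (exact Poisson, Clopper-Pearson and conditional binomial, scipy 1.17.1) are at 95%, and UMIs of 1 nucleus are not independent. No replicates exist, and no test was run. Members were clustered with scanpy 1.11.5 (2000 variable genes, 20 components, 15 neighbours, Leiden resolution 0.5). Named genes are the rule genes, list genes, the 10 genes on each side of the AAV contrast with the interval farthest from 0, and the 20 highest and 10 lowest against the layer types. Layer types needed at least 4 UMIs of Cux2 or Rorb or 8 of Hs3st4 and at most 1 of Slc1a3. Coordinates come from the GENCODE annotation of mm10. Scripts were tested on simulated data. Doublets stayed in, and Scrublet called 5 of the 158 and 4 of the 200 members. Alternatives were the Tshz2 minimum, doublet removal, depth, the UMI minimum, centring and clustering settings. A few of the named genes are not reported here.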

Additional observations from a re-analysis of the deposited data

Results flagged for a closer look

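The rule also found nuclei outside the libraries it names. The library labelled striatum AAV-CTRL held 37 such nuclei (0.156% of 23724) and the one labelled striatum AAV-VEGF-C held 9 (0.0515% of 17466). The near-projecting genes summed to 934 and 1247 CPM there. Tcf7l2, a gene of thalamic neurons, was at 568 and 782 CPM against 5.01 and 9.74 CPM in the members. These nuclei were left out of all comparisons.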

How the results depend on the processing

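Of 50 alternatives to the 6 values that answer the comparisons, 32 stayed close to them and 18 moved. The log2 ratio of member shares moved under none of its alternatives. The near-projecting-like share, 31.6% of members, was 19.5% with a Tshz2 minimum of 6, 23.2% without called doublets, 24.0% with the deeper library thinned, 25.7% at resolution 0.8 and 22.6% when clustered without haemoglobin genes. The near-projecting level over the layer types, 2.26, was 2.42 with a Tshz2 minimum of 10 and 1.77 against all other excitatory candidates. The 16 higher and 7 lower genes became 1989 and 1938 of 15057 with 1 UMI in each library, where single UMIs set the fold, and 6 and 0 of 580 with 500 UMIs. There were 11 lower genes with thinning, 7 higher ones with the same cluster shares, and 5 higher and 0 lower of 372 in near-projecting-like nuclei only. The BDNF median of −0.14 was −0.0754 with a Tshz2 minimum of 6, −0.0681 with 1 UMI in each library and −0.0426 in near-projecting-like nuclei only. Of 180 alternatives for the named genes, 160 stayed close, 18 moved and 2 turned, Cntnap5b to −0.0717 and Unc5c to −0.19 in near-projecting-like nuclei. With a Tshz2 minimum of 6 the log2 ratios of mt-Co1, mt-Co3 and mt-Atp6 were 0.51, 0.48 and 0.29, all under 1.5-fold. The alternatives on cluster shares, equal weights, nuclei kinds, top nuclei, reference and mitochondrial or haemoglobin genes were chosen after seeing the data. The cause of these moves was not tested. No paired analysis was possible because each group had 1 library, and no replicate could be left out. Depth limits genes under 200 UMIs.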
